A study of Homo sapiens with 12 samples.

Results

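Cells of the human breast cancer line MDA-MB-231 labelled ARF-1 were compared with cells given a scramble siRNA, a small interfering RNA with no intended target. The comparison rests on 6 of the 12 arrays of the series, chosen by their source names: 3 labelled ARF-1 and 3 labelled scramble. The other 6 arrays, 3 labelled ARF-2 and 3 labelled ARF-4, carried the same treatment label as ARF-1 and are described only where the sets are compared with each other. They were normalized and fitted together with the 6, so the SEs and p-values of every comparison draw on the spread of all 12. Per the labels, every group was transfected with 100 nM siRNA by Oligofectamine, a lipid reagent. The arrays labelled ARF-1, ARF-2 and ARF-4 are described as ARF1 knockdown with a SMARTpool, a commercial mixture of siRNAs against 1 gene. The meaning of the numbers 1, 2 and 4 is not given in the labels, nor how long after transfection RNA was taken or whether replicates were separate cultures. All p-values therefore measure the spread between these arrays, which may be technical. A hyphen marks a set (ARF-4), and no hyphen marks a gene (ARF4).

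ARF1 is a small GTPase of the Golgi. In its GTP-bound form it sits on the membrane and recruits the COPI coat, which returns proteins from the Golgi to the endoplasmic reticulum, together with adaptor proteins and lipid-modifying enzymes. Exchange factors load it with GTP and GTPase-activating proteins switch it off. The design text names the epithelial-mesenchymal transition (EMT) as the process in question. During EMT, transcription factors of the SNAI, ZEB and TWIST families dissolve epithelial junctions and make cells motile.

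The arrays were Illumina HumanHT-12 V4.0 beadchips, on which beads carrying gene-specific probes are read by fluorescence. Mean raw signal was 371.4 to 503 on the scramble arrays and 398.5 to 498.5 on the ARF-1 arrays, and 39.85% to 42.81% of the probes were detected on each of these 6 arrays. Values below are normalized log2 signals. Differences are ARF-1 minus scramble on the same scale with their standard error (SE), and a gene passed when limma's adjusted p was below 0.05. Across probes, which are not independent replicates, ARF-1 arrays correlated with each other at 0.992 to 0.993 and with scramble arrays at 0.979 to 0.982. Of the marker genes looked up to check the cell line, VIM, CD44, AXL, CAV1 and MSN were detected on all 6 arrays, and ESR1, PGR, FOXA1, CDH1, KRT5, KRT14, PTPRC, CD3E, VWF and CDH5 on 0 of 6. The luminal marker GATA3 was detected on 3 of 6, the adipocyte marker ADIPOQ on 4 of 6, and COL1A1 and DCN, of fibroblasts, on 1 of 6 each. CD14 and PECAM1, otherwise markers of monocytes and endothelium, were detected on 6 of 6.

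The targeted transcript was not shown to be lower. The brightest ARF1 probe (ILMN_1802203) read 11.59, 11.71 and 11.63 on the scramble arrays and 11.64, 11.79 and 11.72 on the ARF-1 arrays. The groups overlapped, with a difference of 0.08 ± 0.08 (SE; limma adjusted p = 0.554). Its 95% confidence interval, -0.10 to 0.25, allowed a fall of at most 6.85% under the main normalization. Under median scaling the difference turned negative, as given further below, so this bound does not hold for every setting. An exact two-sided permutation test over the 20 splits of the 6 arrays gave p = 0.200, where 0.1 is the smallest p that 3 against 3 can reach. A second probe (ILMN_2330948) read 0.30 ± 0.12 (adjusted p = 0.0814). The third and dimmest (ILMN_1661458), detected on 2 of 3 scramble arrays and 1 of 3 ARF-1 arrays, read -0.28 ± 0.16 (adjusted p = 0.236), with an interval that allowed a fall of up to 35.5% in normalized signal. The arrays are therefore called by their label, and the data do not tie any difference below to a loss of ARF1. Protein was not measured.

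For ARF-1 against scramble, 5741 of 22195 probes tested (25.9%) passed, 2893 (13%) higher and 2848 (12.8%) lower in ARF-1. With 1 probe for each gene, 3681 of 12048 genes passed (30.6%), 1835 (15.2%) higher and 1846 (15.3%) lower, and these shares are the background for every gene list below. A fold of at least 1.5 was reached by 793 genes that rose and 759 that fell, and 2-fold by 189 and 117. In 5747 genes (47.7%) the 3 ARF-1 arrays lay wholly on 1 side of the 3 scramble arrays, and 3634 of these passed the test. The balance of rises and falls rests on the normalization. Rises made up 50.4% of the probes that passed, and 32.4% under median scaling, where the median gene shifted to -0.09 and the background became 7.57% of genes higher and 17.1% lower. Of 1093 called genes with several probes, 487 had another probe called in the same direction and 53 had one called in the opposite direction.

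SNORD13, a small nucleolar RNA that guides acetylation of ribosomal RNA, rose the most. It read 7.13, 7.18 and 7.24 on the scramble arrays and 9.89, 9.83 and 9.86 on the ARF-1 arrays, a rise of 2.68 ± 0.09 (6.39-fold; adjusted p = 1.5e-08). The cytokine IL24, related to interleukin-10, read 5.59, 5.94 and 5.61 in scramble and 8.00, 8.13 and 7.96 in ARF-1 (2.32 ± 0.11; adjusted p = 1.6e-07). In both genes the lowest ARF-1 array stood far above the highest scramble array. The zinc finger gene ZNF467, the beta-tubulin TUBB1, known from platelets, and NNMT, which methylates nicotinamide, were detected on 0 scramble arrays and 3 ARF-1 arrays. They were at least 4.56-fold, 3.65-fold and 3.18-fold higher, counted against the detection limit. ANG (angiogenin, a secreted ribonuclease) rose by 1.92 ± 0.11, ATP9A, a lipid flippase of endosomes, by 1.96 ± 0.13, and BCKDHA, a subunit of the enzyme that breaks down branched-chain amino acids, by 1.76 ± 0.11. The growth factor MDK and the phosphatase DUSP4 rose by 2.01 and 1.86, but other probes of MDK read 0.09 and -0.15 and another DUSP4 probe 0.30, none of which passed.

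The largest fall was that of CCL2, the chemokine that draws monocytes. It read 6.66, 6.83 and 6.56 on the scramble arrays and was detected on 0 of 3 ARF-1 arrays, a fall of at least 3.44-fold (adjusted p = 2.9e-07). ID3, which holds helix-loop-helix transcription factors inactive, read 9.18, 9.32 and 9.33 in scramble and 7.39, 7.37 and 7.28 in ARF-1, a fall by 1.93 ± 0.10 (adjusted p = 2.9e-07). Neither gene showed any overlap between the groups, as the choice of the largest falls required. The next falls included RELB, an NF-kB subunit (by 1.57 ± 0.11), UCA1, a long non-coding RNA (by 1.56 ± 0.14), the snoRNA SNORD12C (by 1.54 ± 0.16) and TRMT61A, a tRNA methyltransferase (by 1.49 ± 0.14). Among the 15 largest falls, RRS1, GRWD1, GPATCH4, URB2 and SNORD12C are genes of the nucleolus or of ribosome assembly. This grouping was made after their values were seen.

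**Figure D1:**
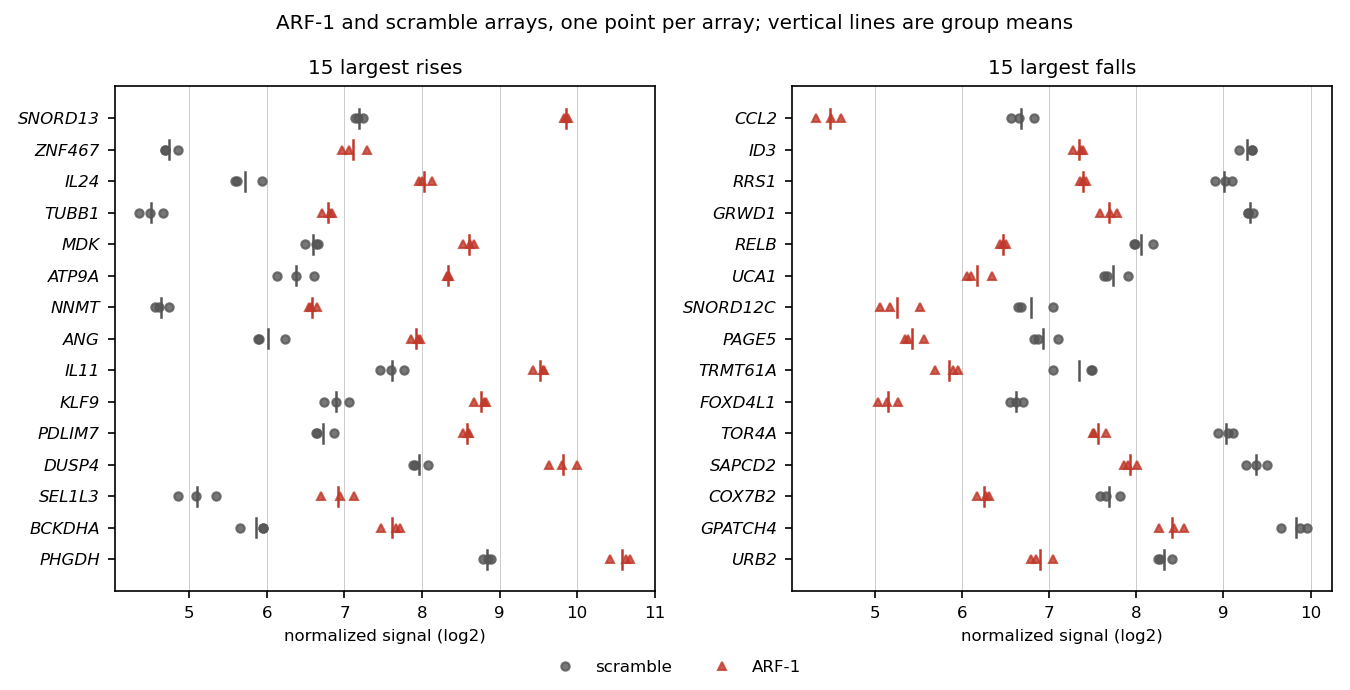
Normalized signal (log2, x axis) on each of the 3 scramble arrays (grey circles) and 3 ARF-1 arrays (red triangles) for the 15 largest rises (left) and 15 largest falls (right); vertical lines are group means. In each of the 30 genes the arrays of the 2 groups do not overlap, as the choice of the genes required, and SNORD13 has the widest gap among the rises (2.68).

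Ribosome biogenesis was the list with the lowest median of the 42. Its factors work in the nucleolus, where they transcribe, cut and modify ribosomal RNA and assemble it with ribosomal proteins. Of 61 members tested, 35 fell and 1 rose (background 15.3% and 15.2%), with a median of -0.43 against -0.003 for all genes. RRS1, which helps assemble the large subunit, read 9.02, 8.91 and 9.09 in scramble and 7.42, 7.39 and 7.36 in ARF-1 (-1.62 ± 0.09; adjusted p = 6.2e-07). DDX21, an RNA helicase of the nucleolus, read 11.65, 11.61 and 11.56 in scramble and 10.42, 10.50 and 10.45 in ARF-1 (-1.15 ± 0.10). In both the highest ARF-1 array lay more than a log2 unit below the lowest scramble array. NOP56, a core protein of the snoRNA-guided methylation complex, fell by 0.97 ± 0.08, with 2 further probes at -1.01 and -0.81, both past the threshold, and PNO1, a small-subunit factor, fell by 1.02 ± 0.09. NOP14, of the small-subunit processome, fell by 1.15 ± 0.10, while its other probe read 0.41 (adjusted p = 0.128). The ribosomal proteins themselves did not follow in number. Of 68 tested, 5 fell and 1 rose, with a median of -0.02, and RPS26 fell by 0.41 ± 0.09. Without background correction 10 of the 68 fell and 3 rose, and without scramble replicate 1 or 2 or ARF-1 replicate 1 or 2 only 3 fell. Among small nucleolar and other structural RNAs 10 of 40 fell and 4 rose. RPPH1, the RNA of RNase P, fell by 0.90 ± 0.10 and SNORA57 by 1.01 ± 0.11, against the rise of SNORD13.

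Cell cycle genes were lower. In the list of G2 and mitosis 27 of 57 members fell and 2 rose, with a median of -0.29. The falls numbered 19 to 23 with 1 array left out, 21 when fitted on the 6 arrays and 30 under median scaling. CDC20, which activates the anaphase-promoting complex, read 12.79, 12.83 and 12.78 in scramble and 12.06, 12.02 and 11.97 in ARF-1 (-0.79 ± 0.08; adjusted p = 3.0e-05). MKI67, the proliferation antigen, read 7.81, 8.07 and 7.85 against 6.98, 7.13 and 6.89 (-0.91 ± 0.12; adjusted p = 2.4e-04). CDCA8, a subunit of the chromosomal passenger complex, fell by 0.80 ± 0.13, CDC25B, a phosphatase that activates mitotic kinase, by 0.83 ± 0.10 and GTSE1 by 0.51 ± 0.08. The groups did not overlap in any of these 5 genes, which were chosen for their small p. The same held for 3634 of the 3681 genes that passed. In bulk RNA, fewer dividing cells and less of these transcripts per dividing cell cannot be told apart.

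Many genes of this list are controlled through a CHR element with an upstream CCAAT box, the sites of the DREAM complex and of NF-Y. The letters TTTGAA (CHR) and CCAAT were searched on both strands from 250 bases before to 50 after the start of each gene in RefSeq promoters (GRCh38.p14). The promoters of 3 named members are shown because they carry both motifs and belong to genes that fell; capitals mark every match, and 2 matches that overlap run together. They are CDC20 (chr1:43358731-43359030, plus strand), MKI67 (chr10:128126374-128126673, minus strand) and CDCA8 (chr1:37692266-37692565, plus strand), each written 5′ to 3′ along its gene.
CDC20: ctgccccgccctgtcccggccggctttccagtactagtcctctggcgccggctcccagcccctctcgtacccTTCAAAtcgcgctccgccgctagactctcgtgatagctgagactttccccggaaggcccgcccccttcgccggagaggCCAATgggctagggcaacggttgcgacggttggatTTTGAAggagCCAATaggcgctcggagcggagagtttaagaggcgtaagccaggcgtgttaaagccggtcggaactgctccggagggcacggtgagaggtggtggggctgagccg
MKI67: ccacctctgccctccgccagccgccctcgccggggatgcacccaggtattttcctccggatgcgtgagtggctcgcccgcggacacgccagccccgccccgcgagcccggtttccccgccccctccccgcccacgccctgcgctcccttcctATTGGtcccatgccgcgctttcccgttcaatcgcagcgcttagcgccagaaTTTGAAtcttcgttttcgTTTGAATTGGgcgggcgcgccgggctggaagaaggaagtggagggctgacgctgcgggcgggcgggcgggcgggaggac
CDCA8: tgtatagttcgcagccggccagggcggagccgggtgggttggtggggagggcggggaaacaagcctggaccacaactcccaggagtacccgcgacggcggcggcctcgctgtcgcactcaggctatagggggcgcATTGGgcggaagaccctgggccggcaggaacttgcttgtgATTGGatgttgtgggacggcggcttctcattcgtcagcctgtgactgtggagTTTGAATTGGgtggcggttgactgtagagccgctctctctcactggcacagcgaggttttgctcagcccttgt
The CHR letters start 65 bases before the CDC20 start (-65), and again at -178. In MKI67 they start at -47 and -29, and in CDCA8 at -23. Of the 27 members that fell, 21 had a promoter in the table and 14 of these (66.7%) held TTTGAA, and likewise 14 held CCAAT. The shares were 72.9% and 77.1% among the 48 promoters of all members tested, so the members that fell did not carry the letters more often than the list as a whole. Among the 9623 promoters of all genes tested the shares were 10.3% and 37.4%. A match is a description of the letters and shows no binding.

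E2F and DNA replication genes, which are transcribed as cells enter S phase, had 26 falls and 2 rises among 55, with a median of -0.20. The falls numbered 20 to 23 with 1 array left out, 21 when fitted on the 6 arrays and 27 under median scaling. TIPIN, which protects replication forks, read 8.58, 8.65 and 8.58 in scramble and 7.47, 7.56 and 7.70 in ARF-1 (-1.03 ± 0.09; adjusted p = 1.0e-05). E2F2, a transcription factor of the S phase programme, fell by 1.08 ± 0.12, CDT1 and MCM10, which load and start the replicative helicase, by 0.87 ± 0.12 and 0.79 ± 0.09, RRM2, which makes deoxyribonucleotides, by 0.81 ± 0.10, and TYMS, which makes thymidylate, by 0.62 ± 0.12. Regulators of G1 went both ways, with 11 rises and 5 falls among 33 (6 and 5 under median scaling). KLF9, a transcription factor with antiproliferative roles, read 7.06, 6.90 and 6.74 in scramble and 8.80, 8.67 and 8.82 in ARF-1 (1.87 ± 0.10; adjusted p = 2.9e-07). Cyclin D1 (CCND1) fell by 0.85 ± 0.10. Cyclin D2 (CCND2) rose by 0.88 ± 0.10 on 1 probe and read 0.16 on the other (adjusted p = 0.472). RBL2, a pocket protein that represses E2F genes, rose by 0.79 ± 0.10. Of 23 p53 targets 5 fell and 1 rose, among them PLK2 (-0.85 ± 0.18), a kinase, and SUSD6 (-1.07 ± 0.13). Without scramble replicate 1 the p53 list had 3 falls and 0 rises, and without scramble replicate 3 it had 3 and 1.

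Targets of ATF4 had the highest median of the lists with at least 15 members tested, 0.33. ATF4 is the transcription factor made when amino acid shortage or stress of the endoplasmic reticulum slows translation, and it turns on amino acid synthesis, uptake and tRNA charging. Of 39 members 19 rose and 4 fell. Under median scaling 13 rose and 4 fell, and without scramble replicate 1 or ARF-1 replicate 2 the counts were 16 and 2. ASNS, which makes asparagine, read 9.32, 9.14 and 9.36 in scramble and 10.80, 10.75 and 10.82 in ARF-1 (1.51 ± 0.10; adjusted p = 2.1e-06), and its other probe rose by 1.05. PHGDH, the first enzyme of serine synthesis, read 8.85, 8.89 and 8.78 against 10.63, 10.69 and 10.43 (1.74 ± 0.10; adjusted p = 4.7e-07). DDIT4, an inhibitor of mTORC1 signalling, read 10.26, 10.22 and 10.15 against 11.77, 11.74 and 11.85 (1.58 ± 0.08; adjusted p = 2.9e-07). All 3 were separated by more than a log2 unit. CTH, which makes cysteine, rose by 1.44 ± 0.13, and PSAT1 and PSPH, the next enzymes of serine synthesis, by 0.89 ± 0.09 and 0.91 ± 0.13. Of 17 serine, glycine and one-carbon enzymes 8 rose and 3 fell (5 and 3 under median scaling). Several of them, among them PHGDH, CTH, PSAT1 and PSPH, are also counted among the ATF4 targets. Cytosolic aminoacyl-tRNA synthetases had 5 rises and 1 fall among 18 (3 and 2 under median scaling). The alanine, serine and glycine enzymes AARS1, SARS1 and GARS1 rose by 0.79 ± 0.08, 0.93 ± 0.12 and 0.63 ± 0.09. FARSA, of phenylalanine, fell by 0.74 ± 0.12. AARS1, SARS1 and GARS1 are counted among the ATF4 targets too, so the counts of these lists are not separate.

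ATF4 binds, with C/EBP partners, an element of the form TGATGNAAT or TGATGNAAC. It was found in the promoters of 2 of the 16 risen members with a promoter in the table (12.5%), in 18.2% of the 33 promoters of all members tested and in 0.914% of the promoters of all genes tested. Both promoters are printed because they belong to genes of amino acid supply that rose, with the element in capitals: ASNS (chr7:97872359-97872658, minus strand) at -68 and AARS1 (chr16:70289457-70289756, minus strand) at -188, where it lies on the opposite strand.
ASNS: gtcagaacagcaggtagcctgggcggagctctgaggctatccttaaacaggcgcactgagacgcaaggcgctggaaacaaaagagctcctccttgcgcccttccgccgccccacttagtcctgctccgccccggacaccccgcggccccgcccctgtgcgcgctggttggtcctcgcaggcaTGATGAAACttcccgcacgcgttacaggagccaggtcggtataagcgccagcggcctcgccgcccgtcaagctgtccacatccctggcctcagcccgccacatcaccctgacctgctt
AARS1: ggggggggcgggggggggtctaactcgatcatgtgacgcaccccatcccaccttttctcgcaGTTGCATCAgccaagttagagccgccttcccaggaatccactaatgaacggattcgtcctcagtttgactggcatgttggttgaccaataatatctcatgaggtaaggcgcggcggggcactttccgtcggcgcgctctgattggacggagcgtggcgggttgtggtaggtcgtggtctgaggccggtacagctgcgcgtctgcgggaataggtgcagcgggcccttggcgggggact
Chaperones of the endoplasmic reticulum and genes of the unfolded protein response had 9 rises and 1 fall among 32. HSP90B1 and HSPA5 (BiP), the main chaperones of that compartment, rose by 0.92 ± 0.10 and 0.69 ± 0.09, and XBP1, a transcription factor of the response, by 0.70 ± 0.09 with its other probe at 0.69. The fall was that of the chaperone HYOU1, by 1.16 ± 0.12, seen with its other probe too (-1.04). Proteasome and heat shock genes had 13 falls and 2 rises among 47, and 32 did not pass. HSPA1B fell by 0.73 ± 0.10 and HSPA8 by 0.55 ± 0.10, while the small heat shock protein HSPB1 rose by 0.51 ± 0.09. Without scramble replicate 1 or 3 or ARF-1 replicate 1 the falls numbered 7.

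**Figure D2:**
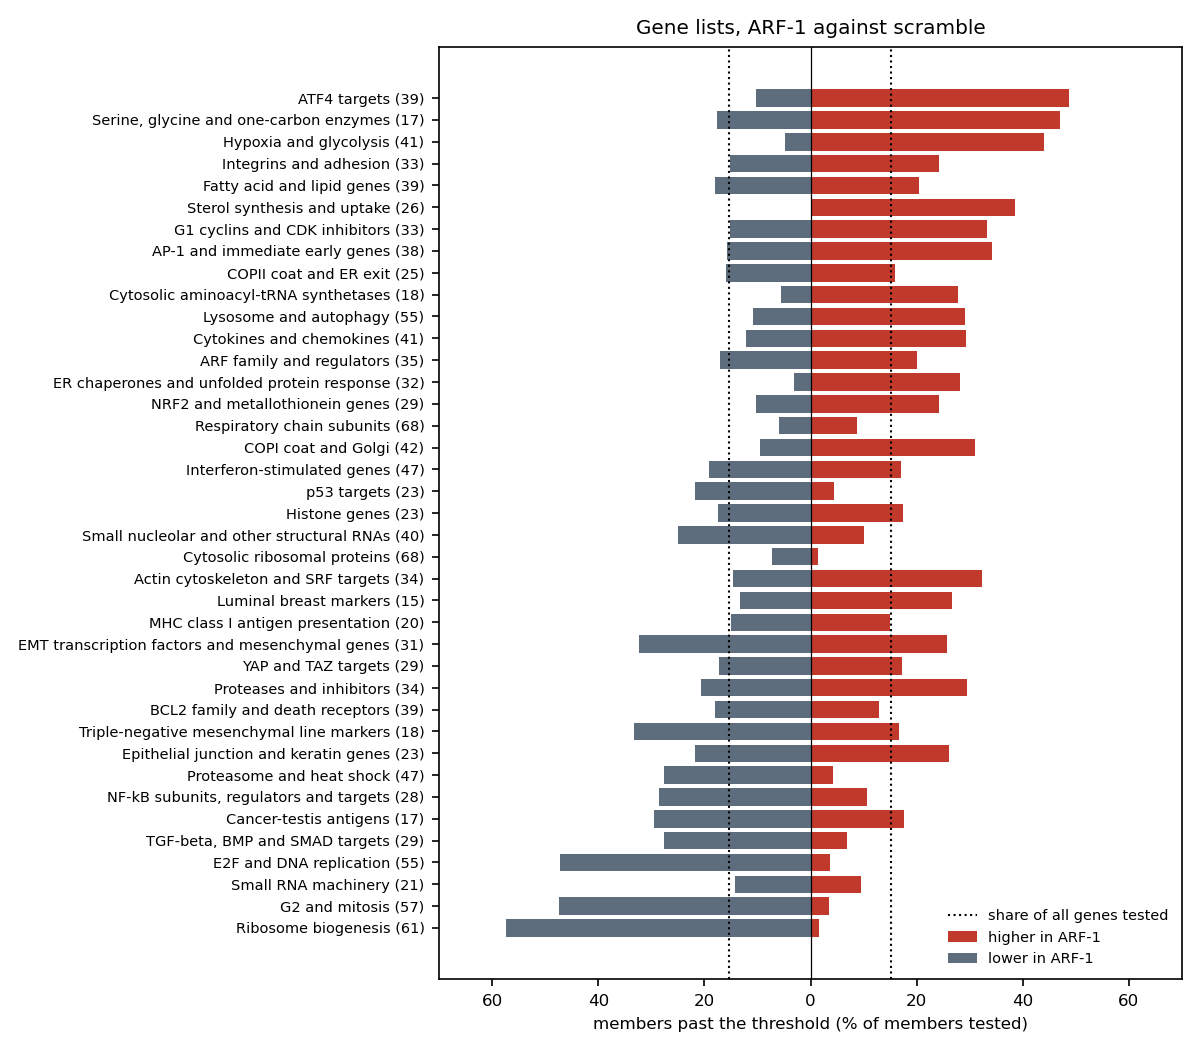
Share of the members tested (%, x axis) that passed the threshold in each gene list with at least 15 members tested (number in parentheses), higher in ARF-1 to the right and lower to the left, ordered by median difference; dotted lines mark the shares of all 12048 genes (15.2% and 15.3%). Ribosome biogenesis (35 of 61 lower) and ATF4 targets (19 of 39 higher) stand at the 2 ends.

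Of 41 genes of hypoxia and glycolysis 18 rose and 2 fell, with a median of 0.23 (10 and 4 under median scaling, 19 and 5 without background correction). NDRG1, a stress gene of hypoxic cells, read 10.06, 10.22 and 10.16 in scramble and 11.52, 11.52 and 11.42 in ARF-1 (1.34 ± 0.11; adjusted p = 6.3e-06). VEGFA, the growth factor of blood vessels, which is also counted among the ATF4 targets, read 8.59, 8.55 and 8.44 against 9.75, 9.75 and 9.65 (1.19 ± 0.09), and its other probe rose by 0.92. SLC2A3, a glucose carrier, rose by 1.12 ± 0.09, PFKFB4, which sets the pace of glycolysis, by 0.75 ± 0.09 and ANKRD37 by 0.70 ± 0.10. The arrays of the groups did not overlap in these 5 genes, chosen for their small p, nor in 3634 of the 3681 genes that passed. Respiratory chain subunits had 6 rises and 4 falls among 68, below the background, and this count rested on the settings (17 and 6 without background correction, 0 and 6 under median scaling, 1 and 3 without ARF-1 replicate 1, 3 and 3 without scramble replicate 1 or ARF-1 replicate 2 or 3, 3 and 5 without scramble replicate 3).

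Lipid and autophagy genes included some of the larger rises. The list of sterol synthesis and uptake also holds genes of sterol export and genes that restrain synthesis or uptake. It had 10 rises and 0 falls among 26 (4 and 1 under median scaling, 6 and 0 without ARF-1 replicate 1). ABCA1, INSIG1, INSIG2 (0.63) and MYLIP (0.35), which export or restrain, were among the rises. The count is therefore not one of synthesis and uptake alone. MYLIP did not pass under median scaling (adjusted p = 0.316). ABCA1, which exports cholesterol, read 8.04, 8.09 and 7.77 in scramble and 9.63, 9.55 and 9.50 in ARF-1 (1.59 ± 0.11; adjusted p = 2.1e-06). INSIG1, which holds the sterol sensor in the endoplasmic reticulum, rose by 1.31 ± 0.10. HMGCS1, an early enzyme of sterol synthesis, rose by 0.57 ± 0.12, but not under median scaling (adjusted p = 0.0621). Fatty acid genes had 8 rises and 7 falls among 39, both shares little above the background of 15.2% and 15.3% (5 and 7 under median scaling). SCD, the desaturase that makes oleic acid, read 9.54, 9.46 and 9.59 against 11.28, 11.21 and 11.15 (1.69 ± 0.09; adjusted p = 2.9e-07), and PPARG, a nuclear receptor of fat storage, rose by 0.97 ± 0.09. Of 55 genes of lysosomes and autophagy 16 rose and 6 fell, but 8 and 9 under median scaling and 21 and 10 without background correction, so the balance of this list is not settled. Its leading members were autophagy genes. GABARAPL1 and MAP1LC3A, which coat the autophagosome membrane, rose by 1.57 ± 0.10 and 1.38 ± 0.10, and the kinase ULK1 and the lipid-binding WIPI1, which act at its start, by 1.07 ± 0.10 and 1.15 ± 0.14. NBR1, a cargo receptor, was detected on 0 scramble arrays and was at least 2.17-fold higher. Among NRF2 targets and metallothioneins, 7 of 29 rose and 3 fell (3 and 3 under median scaling). The metal-binding MT1F rose by 1.27 ± 0.10, and KEAP1, which keeps NRF2 low, fell by 1.10 ± 0.08.

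**Figure D3:**
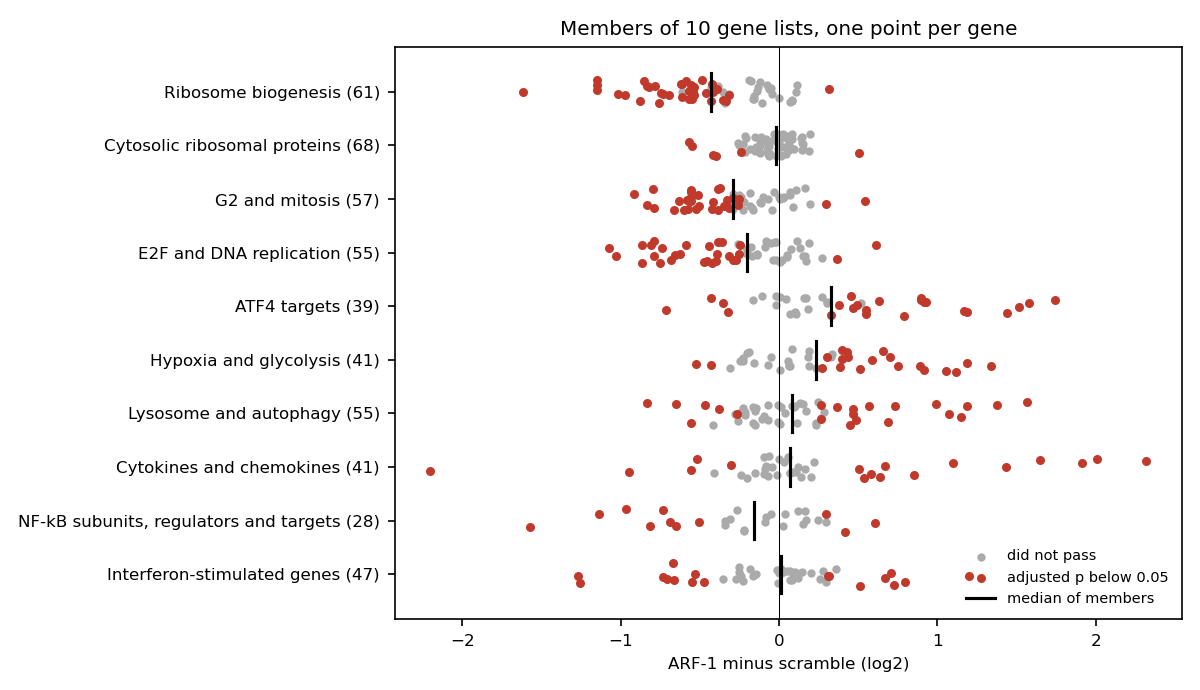
Difference between ARF-1 and scramble (log2, x axis) for each tested member of 10 gene lists (number of members in parentheses), 1 point per gene, red where the adjusted p was below 0.05; black bars are list medians. The median of ribosome biogenesis lies at -0.43 and that of the cytosolic ribosomal proteins at -0.02, while cytokines reach from CCL2 on the left to IL24 (2.32) on the right.

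Secreted signals moved in both directions. Of 41 cytokines and chemokines 12 rose and 5 fell, the falls numbering 3 without scramble replicate 1 or ARF-1 replicate 1. IL11, of the interleukin-6 family, read 7.46, 7.77 and 7.61 in scramble and 9.43, 9.57 and 9.58 in ARF-1 (1.91 ± 0.11; adjusted p = 4.5e-07). IL1B, the inflammatory interleukin-1 beta, read 7.89, 7.86 and 7.75 against 9.30, 9.26 and 9.25 (1.43 ± 0.08; adjusted p = 4.5e-07). These stood with IL24 on the high side and CCL2 on the low side. The AP-1 letters TGANTCA were found in 4 of the 9 promoters of risen cytokine genes (44.4%), in 23.3% of the 30 promoters of all members tested and in 4.61% of those of all genes tested. Other letters were searched as well. Of the 9 promoters, 6 held CCAAT, 3 TATAAA, 2 an NF-kB site (GGGRNWYYCC), 1 TTTGAA and 0 the C/EBP-ATF element. Among the 30, CCAAT stood in 36.7%, and TATAAA and the NF-kB site in 23.3% each. Of the 4 promoters of fallen cytokine genes, 0 held the AP-1 letters and 2 an NF-kB site. The promoter of IL11 (chr19:55370414-55370713, minus strand) is shown for the cytokine with the largest rise among named members whose promoter holds the AP-1 letters, which start at -96 (capitals).
IL11: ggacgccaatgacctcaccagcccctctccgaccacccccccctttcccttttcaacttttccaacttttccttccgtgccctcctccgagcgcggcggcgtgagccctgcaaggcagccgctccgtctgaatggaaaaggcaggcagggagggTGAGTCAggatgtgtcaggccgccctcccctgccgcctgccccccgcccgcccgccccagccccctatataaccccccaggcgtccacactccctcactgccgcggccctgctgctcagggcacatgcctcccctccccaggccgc
NF-kB subunits, regulators and targets had 8 falls and 3 rises among 28 (10 and 1 under median scaling). RELB read 7.98, 7.98 and 8.19 in scramble and 6.51, 6.44 and 6.48 in ARF-1. MAP3K14 (NIK), the kinase that leads to RELB activation, fell by 1.14 ± 0.16, and the inhibitors NFKBIE and NFKBIB by 0.96 ± 0.09 and 0.65 ± 0.13. PTGS2 (cyclooxygenase-2), a target, rose by 0.61 ± 0.09.

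AP-1 and immediate early genes, with the feedback phosphatases of the MAP kinases, had 13 rises and 6 falls among 38 (8 and 6 under median scaling, 12 and 3 without ARF-1 replicate 1). DUSP5, a phosphatase of ERK, rose by 1.01 ± 0.10, and SPRY1 and SPRED2, which damp growth factor signalling, by 0.69 ± 0.09 and 0.75 ± 0.10, while IER5 fell by 0.83 ± 0.10. TGF-beta and BMP genes had 8 falls and 2 rises among 29. Without scramble replicate 1 or ARF-1 replicate 1 they had 5 and 2, and without scramble replicate 3 or ARF-1 replicate 3 they had 5 and 1. Beside ID3, the BMP targets SMAD6 (by 0.66 ± 0.12) and ID1 (by 0.83 ± 0.09) fell, though another ID1 probe read -0.10 (adjusted p = 0.713). ID2 was undetected in ARF-1 and at least 1.25-fold lower. Interferon-stimulated genes had 8 rises and 9 falls among 47 (5 and 10 without scramble replicate 1, 5 and 11 under median scaling). Both shares were near the background (15.2% and 15.3%). HERC6, a ubiquitin ligase, fell by 1.26 ± 0.11 and IFIT2 by 0.73 ± 0.09, whereas the ISG15-conjugating UBE2L6 rose by 0.72 ± 0.08 and the nuclease ISG20 by 0.80 ± 0.10. In antigen presentation 3 of 20 genes rose and 3 fell, again near the background (3 and 6 without background correction, 2 and 5 under median scaling). The class II chain HLA-DRA rose by 0.88 ± 0.08, with its other probe at 0.86. The peptide carrier TAP2 fell by 1.09 ± 0.12 on 1 probe and read -0.06 on another (adjusted p = 0.836).

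EMT genes did not move as a block. Of 31 transcription factors and mesenchymal genes 8 rose and 10 fell, both shares above background, with a median of -0.08. SNAI2 (Slug), an EMT transcription factor, read 7.42, 7.61 and 7.47 in scramble and 6.50, 5.86 and 6.17 in ARF-1 (-1.32 ± 0.19; adjusted p = 3.7e-04), and its other probe fell by 0.97. FOXQ1, a forkhead factor, read 9.65, 9.78 and 9.76 against 8.39, 8.38 and 8.30 (-1.37 ± 0.10; adjusted p = 2.9e-06). Neither overlapped between the groups, which held for most genes that passed. ZEB1 read 6.32, 5.75 and 5.97 against 5.49, 5.46 and 5.42 (-0.56 ± 0.19; adjusted p = 0.0482), a call lost when scramble replicate 1 or 3 or any ARF-1 replicate was left out (adjusted p up to 0.178). VIM, the intermediate filament of mesenchymal cells, read -0.11 ± 0.09 (adjusted p = 0.415). FN1 was detected on 0 scramble and 2 ARF-1 arrays and did not pass (adjusted p = 0.0949), but passed without ARF-1 replicate 1 (0.65; adjusted p = 0.0152). CDH1, SNAI1 and TWIST1 were detected on 0 of all 12 arrays and CDH2 on 1 of 12, so E-cadherin could not be followed at this detection limit. The mesenchymal cadherin CDH11 fell by 1.11 ± 0.09 and the collagenase MMP1 by 1.14 ± 0.14, while the smooth muscle actin ACTA2 rose by 1.36 ± 0.12 and LOX, which crosslinks collagen, by 1.05 ± 0.18.

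Epithelial junction and keratin genes had 6 rises and 5 falls among 23. The tight junction claudin CLDN7 read 7.25, 7.57 and 7.36 in scramble and 8.59, 8.55 and 8.73 in ARF-1 (1.23 ± 0.18; adjusted p = 4.7e-04). CLDN3, undetected in scramble, was at least 1.56-fold higher. The adhesion molecule EPCAM rose by 0.68 ± 0.10, but 2 other probes did not pass (0.33 and 0.23). PKP2, of the desmosome, fell by 0.77 ± 0.14 and the membrane protein MAL2 by 0.82 ± 0.10. Actin and SRF target genes had 11 rises and 5 falls among 34 (6 and 7 under median scaling). Tropomyosin TPM2 rose by 0.87 ± 0.09 and TAGLN by 1.07 ± 0.15, with its other probe at 0.51. PDLIM7 rose by 1.86 ± 0.10, whereas other PDLIM7 probes read 0.24 and 0.04 and did not pass. Integrins and adhesion genes had 8 rises and 5 falls among 33. The rises numbered 4 without scramble replicate 1, 5 without scramble replicate 2 or 3 or ARF-1 replicate 3, 2 under median scaling and 14 without background correction. Thrombospondin (THBS1), a matrix glycoprotein, fell by 0.95 ± 0.09 and the fibronectin receptor subunit ITGA5 rose by 0.66 ± 0.09. YAP and TAZ targets had 5 rises and 5 falls among 29, near the background of 15.2% and 15.3% (2 and 5 under median scaling). The matrix protein CCN2 (CTGF) rose by 0.81 ± 0.12 and the Wnt inhibitor DKK1 fell by 0.63 ± 0.09. Of 34 proteases and inhibitors 10 rose and 7 fell (4 and 7 under median scaling), with the elastase inhibitor SERPINB1 up by 1.35 ± 0.11.

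The ARF family and its regulators, the machinery nearest to the intended target, had 7 rises and 6 falls among 35. Both shares were little above the background of 15.2% and 15.3%, and 37.1% of the list passed against 30.6% of all genes tested. The counts were 3 and 2 without scramble replicate 1 or 3, 2 and 2 without scramble replicate 2, 4 and 3 without ARF-1 replicate 1, 1 and 3 without ARF-1 replicate 2 or 3, and 1 and 5 under median scaling. ARF3 read -0.30 ± 0.15 (adjusted p = 0.165) and ARF6 0.03 ± 0.16 (adjusted p = 0.923). ARF4 (0.31 ± 0.09; adjusted p = 0.0288) and ARF5 (0.29 ± 0.09; adjusted p = 0.0402) passed, but without scramble replicate 1, 2 or 3 ARF4 did not (adjusted p = 0.0607, 0.0941 and 0.0517), nor without ARF-1 replicate 1, 2 or 3 (0.0551, 0.0501 and 0.0948). ARF5 did not pass without any 1 of 5 of these arrays, ARF-1 replicate 1 being the exception (adjusted p up to 0.141). The GTPase-activating proteins GIT2 and GIT1 moved apart. GIT2 read 6.17, 6.68 and 6.15 in scramble and 7.20, 7.50 and 7.13 in ARF-1 (0.94 ± 0.16), and GIT1 read 6.53, 6.85 and 6.65 against 6.09, 5.81 and 6.11 (-0.68 ± 0.14; adjusted p = 0.00446). Another GIT2 probe read 0.35 (adjusted p = 0.0922).

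COPI coat and Golgi genes had 13 rises and 4 falls among 42, with 7 rises without scramble replicate 3 and 2 under median scaling. Without scramble replicate 1 the counts were 10 and 2, and without ARF-1 replicate 2 they were 9 and 2. KDELR3, the receptor that carries escaped chaperones back to the endoplasmic reticulum, read 7.54, 7.35 and 7.36 in scramble and 8.49, 8.56 and 8.59 in ARF-1 (1.13 ± 0.11; adjusted p = 1.8e-05), and its other probes rose by 0.90 and 0.62. AP1S1, an adaptor subunit at the trans-Golgi, rose by 0.65 ± 0.10 and GORASP1 (GRASP65), which stacks Golgi cisternae, fell by 0.58 ± 0.09. The coat subunit COPB2 rose by 0.51 ± 0.09, but not under median scaling (0.36; adjusted p = 0.0516). COPII and exit-site genes had 4 rises and 4 falls among 25, near the background of 15.2% and 15.3% (0 and 4 under median scaling). The scaffold SEC16A fell by 0.60 ± 0.10 and PREB, the exchange factor that starts the coat, by 0.63 ± 0.10.

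Among markers of other cell types, leukocyte markers had 2 rises and 1 fall among 9, and fibroblast, endothelial and adipocyte markers 2 and 0 of 5. Luminal breast markers had 4 and 2 of 15, and basal markers 1 and 1 of 3. Markers of triple-negative mesenchymal lines had 3 and 6 of 18 (5 and 8 without background correction). In that order 33.3%, 40%, 40%, 66.7% and 50% of the members tested passed, against 30.6% of all genes tested. AGR2, a disulfide isomerase of luminal cells, fell by 1.38 ± 0.10, although a second probe read -0.37 (adjusted p = 0.0613), and the luminal factor SPDEF fell by 0.93 ± 0.09. Among luminal markers that rose were the carbonic anhydrase CA12 (0.89 ± 0.13, other probe 0.47) and XBP1 and EPCAM, described above. The small RNA machinery, which siRNA itself uses, had 2 rises and 3 falls among 21 (3 and 8 without background correction, 2 and 7 under median scaling). In the main setting 23.8% of this list passed, below the 30.6% of all genes tested. DGCR8, which works with the nuclease that cuts microRNA precursors from their transcripts, fell by 0.87 ± 0.11, and XPO5, which exports the precursors, by 0.60 ± 0.09. AGO2, the slicer, rose by 0.61 ± 0.10.

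The arrays labelled ARF-1 and ARF-2 were hard to tell apart. Of 12048 genes 9 passed (0.0747%), 2 higher and 7 lower in ARF-1, with 1068 at an unadjusted p below 0.05. The number rested on single arrays and on the settings. Of 14 probes that passed, between 1 and 8 were counted when an array of either set was left out, while 111 passed without background correction. TUBB1 differed most. The ARF-1 arrays read 6.71, 6.81 and 6.84. The ARF-2 arrays read 5.19, 4.78 and 4.90, and the ARF-4 arrays 4.43, 4.39 and 4.41, undetected as in scramble. ARF-1 exceeded ARF-2 by 1.83 ± 0.12 (adjusted p = 3.7e-05) and passed without any 1 array (largest adjusted p = 6.9e-04). IFIT3, an interferon-stimulated gene, read 8.21, 8.12 and 8.25 in ARF-1, below scramble (8.60 to 8.71), ARF-2 (8.92 to 9.01) and ARF-4 (8.73 to 8.83). It fell by 0.48 ± 0.08 against scramble, and its difference from ARF-2 was -0.77 ± 0.08 (adjusted p = 0.00846), a call lost without ARF-1 replicate 1 or 2 or ARF-2 replicate 1 or 2 (adjusted p up to 0.0888). TUBB1 and IFIT3 were the only genes past the threshold in 1 direction against scramble, ARF-2 and ARF-4 alike. IL1B rose less in ARF-1 than in ARF-2 (difference -0.66 ± 0.08; adjusted p = 0.0125), and KISS1, a metastasis suppressor peptide gene, was higher (0.95 ± 0.12; adjusted p = 0.0201). The IL1B call was lost without any 1 of these 6 arrays but ARF-2 replicate 3 (adjusted p up to 0.107). The KISS1 call was lost without any 1 of them (up to 0.151). Under median scaling IFIT3 (adjusted p = 0.237) and IL1B (adjusted p = 0.352) did not pass against ARF-2. Fitted on the 6 arrays of the 2 sets, IFIT3, IL1B and KISS1 did not pass either (adjusted p = 0.219, 0.243 and 0.243). A p that missed the threshold does not show that the 2 sets were alike.

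**Figure D4:**
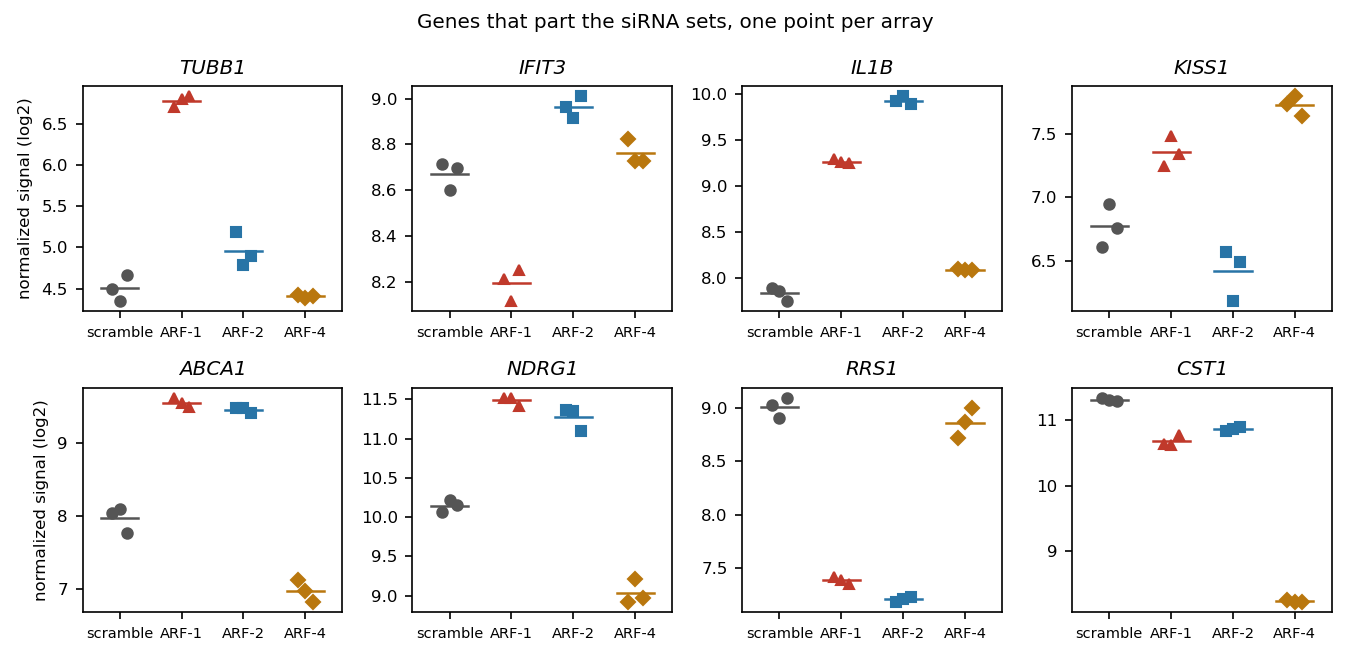
Normalized signal (log2, y axis, a separate scale in each panel) of 8 genes on each of the 12 arrays, by group; horizontal lines are group means. TUBB1 reads highest and IFIT3 lowest in ARF-1, and IL1B and KISS1 differ between ARF-1 and ARF-2 in the main fit. ABCA1, NDRG1 and RRS1 part ARF-1 from ARF-4 by between 1.47 and 2.59.

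ARF-1 and ARF-4 were far apart. Directly compared, 2884 genes passed (23.9%), 1436 (11.9%) higher and 1448 (12%) lower in ARF-1. ABCA1 read 9.50 to 9.63 in ARF-1 and 6.82 to 7.12 in ARF-4, a difference of 2.59 ± 0.11 (adjusted p = 1.5e-07). Against scramble it rose by 1.59 in ARF-1 and fell by 1.00 in ARF-4. NDRG1 differed by 2.45 ± 0.11, with 1.34 in ARF-1 and -1.11 in ARF-4 against scramble. The cystatins CST1 and CST4, inhibitors of cysteine proteases, differed by 2.44 ± 0.08 and 2.15 ± 0.11. Against scramble both fell in ARF-4 (-3.08 and -1.91). In ARF-1 CST1 fell as well, but less (-0.64; adjusted p = 1.5e-04), and CST4 did not pass (0.25; adjusted p = 0.119). In the other direction RRS1 differed by -1.47 ± 0.09 and RPPH1 by -1.61 ± 0.10. These 2 contrasts with scramble share the scramble arrays. The direct difference of means leaves those arrays out, although they add to its SE and p through the common fit. The gene lists that led in ARF-1 also parted it from ARF-4. They were not particular to ARF-1. In ARF-2 against scramble 37 ribosome biogenesis genes fell and 0 rose (median -0.49). There 20 E2F and replication genes fell and 2 rose, and 24 G2 and mitosis genes fell and 2 rose. Hypoxia and glycolysis had 14 rises and 3 falls in ARF-2, and ATF4 targets 14 and 5. Of these lists 0 members passed between ARF-1 and ARF-2. Of 61 ribosome biogenesis genes 32 were lower in ARF-1 than in ARF-4 and 1 higher (background 12% and 11.9%), and the list's median against scramble was 0.01 in ARF-4. Of 55 E2F and replication genes 33 were lower and 0 higher, with a median of 0.12 in ARF-4. Of 41 hypoxia and glycolysis genes 25 were higher and 1 lower, with 2 rises and 17 falls in ARF-4 against scramble. G2 and mitosis had 16 lower and 2 higher of 57, and ATF4 targets 13 higher and 3 lower of 39. Proteasome and heat shock genes had 15 lower and 1 higher of 47. IL11, in contrast, differed by 0.01 ± 0.11 (adjusted p = 0.965) between ARF-1 and ARF-4, and CCL2 was undetected in both.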

How the data were processed

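RNA from 12 samples was hybridised to beadchips (Illumina HumanHT-12 V4.0), and 6 of the arrays form the comparison. The deposited files hold, per the file headers, a bead summary intensity for each probe and array, without normalization, beside its detection p-value. BeadStudio 2.3.47 is named in the submitters' processing notes. A second deposited table holds the authors' processed intensity values, which equal the quantile-normalized signals to within 6.06e-07 (log2) and are therefore not background-corrected. There are 47323 probes, 12 with no value. Of all probes 30113 have 1 gene symbol in GEO's platform annotation, 8 several and 17202 none. No probe coordinates were used.

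The neqc function of limma (3.58.1, in R 4.3.3) processed the signals (normexp background from detection p-values, offset 16, quantile normalization over 12 arrays, log2). Probes detected (p below 0.05) on at least 3 arrays were kept, 22195 in all. Of these 16192 had 1 symbol, for 12048 genes, each represented by its brightest probe, and 6003 had none or several (983 passed). All 12 arrays shared 1 fit of 4 group means, tests were two-sided, and Benjamini-Hochberg adjustment ran over all kept probes. Where no array of a group detected a gene, its fold is a bound against the detection limit. The number of arrays limits the precision. Same-numbered replicates did not deviate together (correlations -0.022 to 0.027), so numbers were not taken as pairs.

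The 42 gene lists (1607 genes, 1496 with a probe, 1317 tested), the members and the tests were chosen with earlier results of these data known. They are described by counts and medians, with no set test. Named genes are ARF1 and relatives, EMT genes, the 15 largest rises and falls with separated arrays, the 6 largest differences each way from ARF-2 and ARF-4, genes with ARF-1 farthest out, and, per list, the first 5 members by adjusted p. Any list member called in opposite directions in ARF-1 and another set was added. Alternatives covered background correction, normalization, probe filter, array weights, variance prior, replicate block, a fit on 6 arrays, other probes and leaving out each array.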

Additional observations from a re-analysis of the deposited data

Results flagged for a closer look

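Differences between the sets, tested directly as contrasts between them, drew attention because all arrays carry the same treatment label. ARF-1 differed from ARF-2 in 9 genes and from ARF-4 in 2884. Against ARF-2 (log2, ARF-1 minus ARF-2) RFX3, a transcription factor of ciliated cells, read -1.49, IFIT3 -0.77, IFIT1 -0.68, IL1B -0.66, the glycosyltransferase GALNT2 -0.62 and RAB27B, a GTPase of secretion, -0.56. TUBB1 read 1.83 and KISS1 0.95. The calls of IFIT1, GALNT2 and RAB27B were lost without any 1 of the 6 arrays of the 2 sets (adjusted p 0.0793 to 0.193), and that of RFX3 without any 1 but ARF-2 replicate 3 (up to 0.151). With the replicate block these 4 had adjusted p of 0.0846 to 0.129. RFX3 rose by 1.93 in ARF-2 against scramble and read 0.44 in ARF-1 (adjusted p = 0.123).

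Against ARF-4 the lowest in ARF-1 were RPPH1 (-1.61), RRS1 (-1.47), the vitamin carrier SLC5A6 (-1.41), RPL22L1, a paralog of a ribosomal protein (-1.39), TCF19 (-1.37) and TRMT61A (-1.35). Against scramble the named TCF19 probe fell by 1.30 and a second by 0.92 (adjusted p = 0.00173), while another read 0.11 (adjusted p = 0.698). The highest against ARF-4 were ABCA1 (2.59), NDRG1 (2.45), CST1 (2.44), TUBB1 (2.38), CST4 (2.15) and LAIR2, a secreted collagen receptor (2.04). Each of these 12 stayed past the threshold without any 1 array.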

How the results depend on the processing

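For ARF-1 against scramble the number of probes that passed, 5741, lay between 4645 (median scaling) and 6659 (the authors' value table) in the settings that kept all arrays, and between 4570 and 4720 with 1 of the 6 arrays left out. The replicate block gave 5536. For ARF-1 against ARF-4, 4353 probes passed, and 2804 under median scaling (3378 to 3660 with 1 array left out). For ARF-1 against ARF-2, 14 probes passed, which became 111 without background correction, 57 with an offset of 50, 109 in the authors' value table, 48 with a stricter filter, 72 with a trended and robust prior, 9 under cyclic loess, 3 under median scaling, 3 with the replicate block, 1 on the 6 arrays of the 2 sets (normalized together or alone) and 1 to 8 with 1 array left out. ARF1 in ARF-1 against scramble read -0.064 under median scaling, -0.28 on its dimmest probe and 0.04 to 0.11 with 1 array left out. Against scramble AGAP3 read -0.605 and TAPBP -0.528 on the brightest probe, but each had another probe called higher (0.327 and 0.797). As the mean of all probes of the gene, AGAP3 turned to 0.041 and TAPBP to 0.11. RAB27B went from -0.36 to -0.04 (adjusted p = 0.796). Of 250 named genes 236 passed, 214 of them in every leave-one-out and 193 in every alternative, and 34 lost the threshold under median scaling. Causes were not tested. Dim probes limit the rest, since the offset shrinks their changes.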

Other observations

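Single histone and cancer-testis genes, not described so far, also differed in both directions. H2AX, the histone variant phosphorylated at DNA breaks, read 9.06, 8.72 and 8.56 in scramble and 7.38, 7.59 and 7.74 in ARF-1 (-1.21 ± 0.14; limma adjusted p = 7.5e-05), and H2AC18 fell by 1.04 ± 0.12, while H2AJ rose by 0.75 ± 0.11 and H2BC12 by 0.58 ± 0.08. Histone genes had 4 rises and 4 falls among 23, near the background of 15.2% and 15.3% (2 and 4 under median scaling). Histone genes are near-copies of each other, so a probe may read more than 1 of them. Of 17 cancer-testis genes, normally active in the germ line, 5 fell and 3 rose (3 and 2 with the stricter filter). The share of falls was above the background and that of rises near it. COX7B2, a testis-specific subunit of the respiratory chain, fell by 1.43 ± 0.15 and TRIML2 by 1.27 ± 0.11. MAGEB2, undetected on the scramble arrays, was at least 2.95-fold higher. Genes of the BCL2 family and death receptors had 5 rises and 7 falls among 39, near the background. The counts were 8 and 9 without background correction, 3 and 7 under median scaling, and 5 and 4 without scramble replicate 2. The decoy receptor TNFRSF10D rose by 0.82 ± 0.12 and CASP2 fell by 0.63 ± 0.09.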
